A study of Mus musculus with 165 samples.

Results

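The genes described here were the nuclear receptor gene Ppara and 7 genes of fatty acid oxidation that PPAR-alpha is known to control, followed through aging of the mouse liver. They were chosen by symbol, as the rows of the liver count table whose Ensembl identifiers map to Ppara, Cpt1a, Acadm, Ehhadh, Acot1, Cyp4a10, Cyp4a14 and Fgf21, which gave 8 of the 55471 rows. All 8 were among the 15579 genes that passed the filter on low counts. The study sequenced polyadenylated RNA from whole livers and brains of male C57BL/6J/Ukj mice, an inbred substrain, which the labels describe as kept only to age. The mice carried no transgene or treatment by the labels, and the groups differed by age alone: 16 livers at 3 months, 16 at 9 months, 16 at 15 months, 17 at 24 months and 18 at 28 months. Libraries were made in 3 preparations, called prep 1, prep 2 and prep 3, and each held 4 to 7 livers of every age. The age groups are different mice sampled once, of 1 sex and 1 strain, and the time of day and the feeding state at sampling were not in the labels.

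PPAR-alpha is a receptor of the cell nucleus that binds fatty acids and their derivatives, pairs with a retinoid X receptor and sits on DNA elements built of repeated AGGTCA units. In the liver it is best known for switching on fatty acid oxidation in fasting. Its targets span the entry of fatty acids into mitochondria, beta-oxidation in mitochondria and peroxisomes, omega-oxidation in the endoplasmic reticulum, and the secreted hormone FGF21.

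Levels are given as CPM, the share of a library's counts on a common scale for all libraries, after TMM normalization, which corrects for RNA composition. Differences between ages came from edgeR's quasi-likelihood test over all 83 livers with prep as a term. A gene was called, or said to have risen or fallen, at an adjusted p under 0.05 over the 15579 genes tested. Errors of log2 fold changes are standard errors (SE), errors of levels are standard deviations (SD), and p-values measure the spread between the mice of a group. Total counts per liver lay between 5.82 M and 57.5 M, with a median of 32.9 M, and the median by age between 31.0 M and 36.8 M. The livers least like the others by rank correlation over all genes were replicate 13 at 24 months and replicate 9 at 28 months, with medians of 0.919 and 0.930. Leaving both out changed none of the member calls against 3 months. All comparisons against 3 months share the same 16 livers, and their values are therefore given side by side only.

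None of the 8 genes passed the test until 15 months, and most were lower at 24 months. At 9 and at 15 months against 3 months 0 of the 8 were called, beside 4.69% and 7.32% of all tested genes, by edgeR and by DESeq2 alike. At an unadjusted p under 0.05, 1 of the 8 differed at 9 months and 2 at 15 months. At 24 months 7 of the 8 were lower and none higher, beside 24% of all tested genes called lower and 25% called higher, and Cpt1a was the exception. At 28 months 4 of the 8 were lower and none higher, beside 30% of all genes called lower and 31.9% called higher. The median log2 fold change of the 8 genes was 0.11 at 9 months, -0.20 at 15 months, -0.91 at 24 months and -0.57 at 28 months, against medians over all tested genes between -0.02 and 0.01. A test of all ages together called all 8, beside 71.5% of all genes. In bulk tissue, fewer hepatocytes and less RNA of a gene per hepatocyte cannot be told apart.

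**Figure D1:**
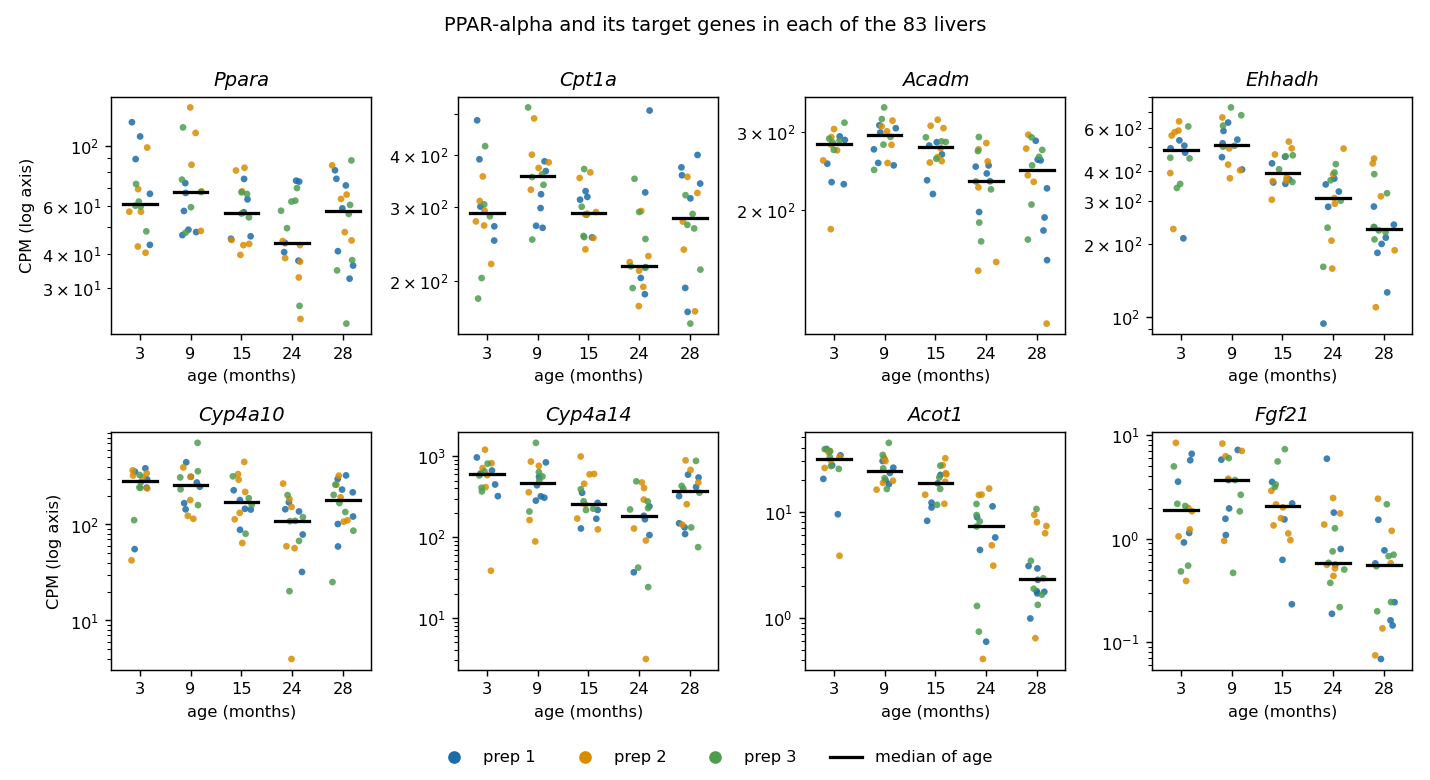
Levels of the 8 genes in CPM (log axis) against age in months, with 1 point per liver coloured by prep and a bar at the median of each age. Acot1 and Fgf21 are lowest at 28 months, while the medians of Ppara, Cpt1a, Cyp4a10 and Cyp4a14 are lowest at 24 months.

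Per kilobase of exon, the order of mean levels at 3 months ran from Cyp4a14 (231 CPM per kb) through Ehhadh (155), Cyp4a10 (123), Acadm (69.1), Cpt1a (39.4), Ppara (17.8) and Acot1 (7.27) to Fgf21 (2.84 CPM per kb). The same order of means stood at 28 months. There Ehhadh and Cyp4a10 had drawn level, at 85.4 and 84.7 CPM per kb, and Acot1 and Fgf21 were both under 1, at 0.953 and 0.725 CPM per kb.

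Ppara itself (ENSMUSG00000022383, chr15:85734983-85802819, plus strand, GRCm38) ran from 40.3 to 122 CPM at 3 months, with a median of 61.1. It ran from 46.8 to 138 CPM at 9 months (median 67.2) and from 39.6 to 82.8 at 15 months (median 56.5). At 24 months the range was 23.0 to 74.2 CPM (median 43.8), and at 28 months 22.1 to 88.1 (median 57.4). The groups overlapped widely, yet 6 of 17 livers at 24 months and 5 of 18 at 28 months lay below the lowest liver of 3 months. The receptor fell at 24 against 3 months, with a log2 fold change of -0.51 ± 0.17 (adjusted p = 0.0086). At 28 months its log2 fold change against 3 months was -0.30 ± 0.16 (adjusted p = 0.106), which did not pass. The same value was -0.62 within prep 1, 0.02 within prep 2 and -0.28 within prep 3.

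Cpt1a, which makes the acylcarnitines that carry long-chain fatty acids into mitochondria is the main control point of that entry. Its gene (ENSMUSG00000024900) lies at chr19:3322334-3385733 on the plus strand. It ran from 181 to 483 CPM at 3 months with a median of 289.7, and from 251 to 519 at 9 months with a median of 357. At 15 months the values lay between 238 and 369.8 CPM (median 291). The 24-month livers ran from 174 to 510.2 CPM (median 217) and the 28-month livers from 158 to 399.5 (median 283). The highest liver of 24 months, replicate 5, stood above every 3-month liver, while 12 of 17 lay under the 3-month median. The log2 fold change at 24 against 3 months was -0.25 ± 0.12 (adjusted p = 0.0745). Without that replicate 5 it was -0.35, with an adjusted p of 0.01. Leaving out replicate 16 of 24 months (-0.29, adjusted p = 0.0387), replicate 10 of 3 months (-0.29, 0.0398) or replicate 16 of 3 months (-0.29, 0.0478) also brought the edgeR adjusted p under the threshold. At 28 months the log2 fold change was -0.11 ± 0.12 (adjusted p = 0.411), and its 95% interval ran from -0.35 to 0.12.

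Acadm, the medium-chain acyl-CoA dehydrogenase that starts each round of mitochondrial beta-oxidation on medium chains, had the smallest SD of the 8 on the log2 scale among the livers of each age. The gene (ENSMUSG00000062908) lies at chr3:153922357-153944632 on the minus strand. At 3 months its lowest, median and highest values were 181, 282 and 314 CPM, and the ranges at 9 and 15 months were 246 to 339.6 and 217 to 319 CPM. At 24 months the values ran from 146 to 292 CPM (median 232), and at 28 months from 111 to 295 (median 246). No liver of 24 or 28 months exceeded the highest 3-month liver, and 15 of 17 and 15 of 18 lay below the 3-month median. Acadm fell by a small amount, with log2 fold changes of -0.24 ± 0.08 (adjusted p = 0.0136) at 24 months and -0.22 ± 0.08 (adjusted p = 0.0174) at 28 months.

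The promoters of Cpt1a and Acadm are shown because, of the 6 members with an entry in the RefSeq promoter table (GRCm38.p6), they alone held an AGGTCA unit in the 300 bases from 250 before to 50 after the gene's RefSeq start. Positions are counted from that start, which need not be the GENCODE start given with each gene: the windows of Cpt1a and Ppara lie within the GENCODE interval of the gene. The sequences span chr19:3323051-3323350 (plus strand) and chr3:153944594-153944893 (minus strand), written 5′ to 3′ along the gene. Capitals mark this unit, here on the opposite strand as TGACCT with its first base at -94 in Cpt1a and at -249 in Acadm, and a CCAAT motif at -19 in Cpt1a.
Cpt1a: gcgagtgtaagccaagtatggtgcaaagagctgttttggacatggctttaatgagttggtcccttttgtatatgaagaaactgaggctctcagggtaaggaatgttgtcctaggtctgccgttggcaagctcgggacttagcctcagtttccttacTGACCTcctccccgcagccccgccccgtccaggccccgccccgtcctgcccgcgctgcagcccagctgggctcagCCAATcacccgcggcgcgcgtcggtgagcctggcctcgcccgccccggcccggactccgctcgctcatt
Acadm: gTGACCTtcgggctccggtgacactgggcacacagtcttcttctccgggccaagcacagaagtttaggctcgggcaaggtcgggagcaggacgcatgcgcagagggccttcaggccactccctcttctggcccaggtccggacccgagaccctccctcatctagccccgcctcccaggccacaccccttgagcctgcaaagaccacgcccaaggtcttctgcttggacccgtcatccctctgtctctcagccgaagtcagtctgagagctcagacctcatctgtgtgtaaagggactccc
The AGGTCA unit, searched on both strands, was in 16.3% of the 32817 promoters of the table. The pair of units with a spacer of 1 base, AGGTCANAGGTCA, was in none of the 6 and in 0.0396% of all promoters, and the looser form AGGNCANAGGNCA was in none of the 6 and in 0.381%. These matches describe letters only, and elements outside this window were not searched.

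Ehhadh, the peroxisomal enzyme that carries out the hydratase and dehydrogenase steps of beta-oxidation on very long and dicarboxylic chains, fell at both later ages. The gene (ENSMUSG00000022853) lies at chr16:21761287-21787807 on the minus strand. It ran from 211 to 638 CPM at 3 months (median 485), from 373 to 728 at 9 months (median 512) and from 304 to 527 at 15 months (median 391). At 24 months it ran from 94.3 to 493 CPM (median 309), and at 28 months from 110.1 to 449 (median 231). All 18 livers of 28 months lay below the 3-month median, and 6 of them below the lowest 3-month liver. Ehhadh was lower at 24 months by a log2 fold change of -0.61 ± 0.15 (adjusted p = 0.000481) and at 28 months by -0.86 ± 0.15 (adjusted p = 7.29e-07), which is 1.81-fold.

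Acot1, a cytosolic thioesterase that splits long-chain acyl-CoA into free fatty acid and coenzyme A, showed the greatest fall of the 8. The gene (ENSMUSG00000072949) lies at chr12:84009490-84018371 on the plus strand. At 3 months its values ran from 3.84 to 38.8 CPM with a median of 31.5. The medians were then 24.3 CPM at 9 months (16.1 to 44.3), 18.8 at 15 months (8.18 to 31.8), 7.24 at 24 months (0.410 to 16.5) and 2.32 at 28 months (0.644 to 10.6). The 3-month group held 2 low livers, replicate 12 at 3.84 and replicate 15 at 9.43 CPM, and every other 3-month liver lay above the whole range of 28 months. Of the 18 livers of 28 months, 17 lay below replicate 15 and 13 below replicate 12. Acot1 was lower at 24 months by a log2 fold change of -2.01 ± 0.31 (adjusted p = 1.75e-07), which is 4.04-fold, and at 28 months by -2.96 ± 0.32 (adjusted p = 7.88e-13), which is 7.79-fold. At 15 months the log2 fold change was -0.66 ± 0.30 (adjusted p = 0.192).

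Counts of Acot1 and Cyp4a10 are less certain than those of the other 6. In the GENCODE M21 transcripts, 12.4% of the 100-base windows of Acot1 also occurred in a transcript of another gene, Acot2 in most cases and Acot3, Acot4, Acot5 or Acot6 in others. For Cyp4a10 the share was 12.2%, with Cyp4a32 and Cyp4a31, and for the other 6 members it was 0. How the authors' counting treated such reads was not given in the sources used here. Acot2 was lower at 28 months by a log2 fold change of -0.71 ± 0.16 (adjusted p = 0.000102), whereas Acot4 was higher by 0.68 ± 0.16 (adjusted p = 0.000121) and Acot3 went from 6.49 ± 4.88 to 24.7 ± 21.8 CPM (adjusted p = 5.59e-05). The difference between Acot1 and these related genes was not tested.

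The promoter of Acot1 (chr12:84009252-84009551, plus strand) and that of Fgf21 (chr7:45615441-45615740, minus strand) are shown as those of the members with the greatest falls at 28 against 3 months. Capitals mark a CCAAT motif at -79 in Acot1 and a TATAAA motif at -28 in Fgf21, the only matches in these windows to the motifs searched.
Acot1: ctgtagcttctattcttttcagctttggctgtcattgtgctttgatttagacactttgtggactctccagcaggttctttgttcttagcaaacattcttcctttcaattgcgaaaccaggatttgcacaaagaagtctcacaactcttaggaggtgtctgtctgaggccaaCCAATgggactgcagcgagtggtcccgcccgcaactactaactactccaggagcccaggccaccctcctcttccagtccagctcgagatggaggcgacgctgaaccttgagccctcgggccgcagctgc
Fgf21: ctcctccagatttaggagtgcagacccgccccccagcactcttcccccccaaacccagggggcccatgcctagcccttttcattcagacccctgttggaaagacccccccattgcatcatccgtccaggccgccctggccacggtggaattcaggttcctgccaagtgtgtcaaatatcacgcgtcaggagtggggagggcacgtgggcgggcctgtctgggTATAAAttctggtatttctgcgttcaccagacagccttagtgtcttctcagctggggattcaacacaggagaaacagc
CCAAT, searched on both strands, occurred in 37.4% of all promoters of the table and TATAAA in 13.6%. The promoter of Ehhadh also held CCAAT, on the opposite strand at -38, and that of Ppara held none of the motifs.

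Cyp4a10 and Cyp4a14 encode fatty acid omega-hydroxylases, which oxidize the far end of the chain, and are widely used as readouts of PPAR-alpha activity in rodent liver. Cyp4a10 (ENSMUSG00000066072) lies at chr4:115518264-115533649 on the plus strand and Cyp4a14 (ENSMUSG00000028715) close by at chr4:115486200-115496142 on the minus strand. Cyp4a10 ran from 42.3 to 384 CPM at 3 months (median 285), 115 to 708 at 9 months (median 260.3) and 64.1 to 449 at 15 months (median 169.9). At 24 months its range was 3.97 to 267 CPM (median 109), and at 28 months 25.1 to 324 (median 179). All 17 livers of 24 months lay below the 3-month median, and 15 of 18 did so at 28 months. The log2 fold change was -1.20 ± 0.31 at 24 months (adjusted p = 0.000884) and -0.53 ± 0.30 at 28 months (adjusted p = 0.123).

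Cyp4a14 likewise had its lowest median at 24 months. Its lowest, median and highest values were 38.3, 598 and 1209 CPM at 3 months, 88.4, 471 and 1469 at 9 months, and 125, 259.6 and 996 at 15 months. At 24 months they were 3.10, 184 and 490.3 CPM, and at 28 months 75.1, 376 and 892. Every 24-month liver lay below the 3-month median, and at 28 months 15 of 18 did. Replicate 8 of 24 months stood far below its group in both genes, at 3.10 CPM for Cyp4a14 and 3.97 for Cyp4a10. Cyp4a14 fell at 24 against 3 months with a log2 fold change of -1.62 ± 0.37 (adjusted p = 0.000193), 3.08-fold, and was at -0.62 ± 0.36 at 28 months (adjusted p = 0.123). At 15 months its log2 fold change was -0.89 ± 0.37 (adjusted p = 0.139).

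Fgf21 (ENSMUSG00000030827, chr7:45613886-45615490, minus strand) encodes a hormone secreted by the liver in fasting and under stress, and had the lowest counts of the 8. Its values ran from 0.390 to 8.45 CPM at 3 months (median 1.91), 0.467 to 8.31 at 9 months (median 3.69) and 0.232 to 7.34 at 15 months (median 2.08). At 24 months they ran from 0.187 to 5.93 CPM (median 0.583), and at 28 months from 0.0685 to 2.43 (median 0.559). The groups overlapped, but 8 of the 18 livers of 28 months lay below the lowest 3-month liver and 16 below the 3-month median. Counting error is large in the lowest livers, since 2 livers of 28 months held 3 counts or fewer, and the lowest 3-month liver held 13. Fgf21 was lower at 24 months by a log2 fold change of -1.22 ± 0.44 (adjusted p = 0.0165) and at 28 months by -1.93 ± 0.44 (adjusted p = 0.00011), 3.81-fold. Without replicate 1 of 3 months, its highest liver at that age, the 24-month value was -0.98 and no longer passed (adjusted p = 0.0571).

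**Figure D2:**
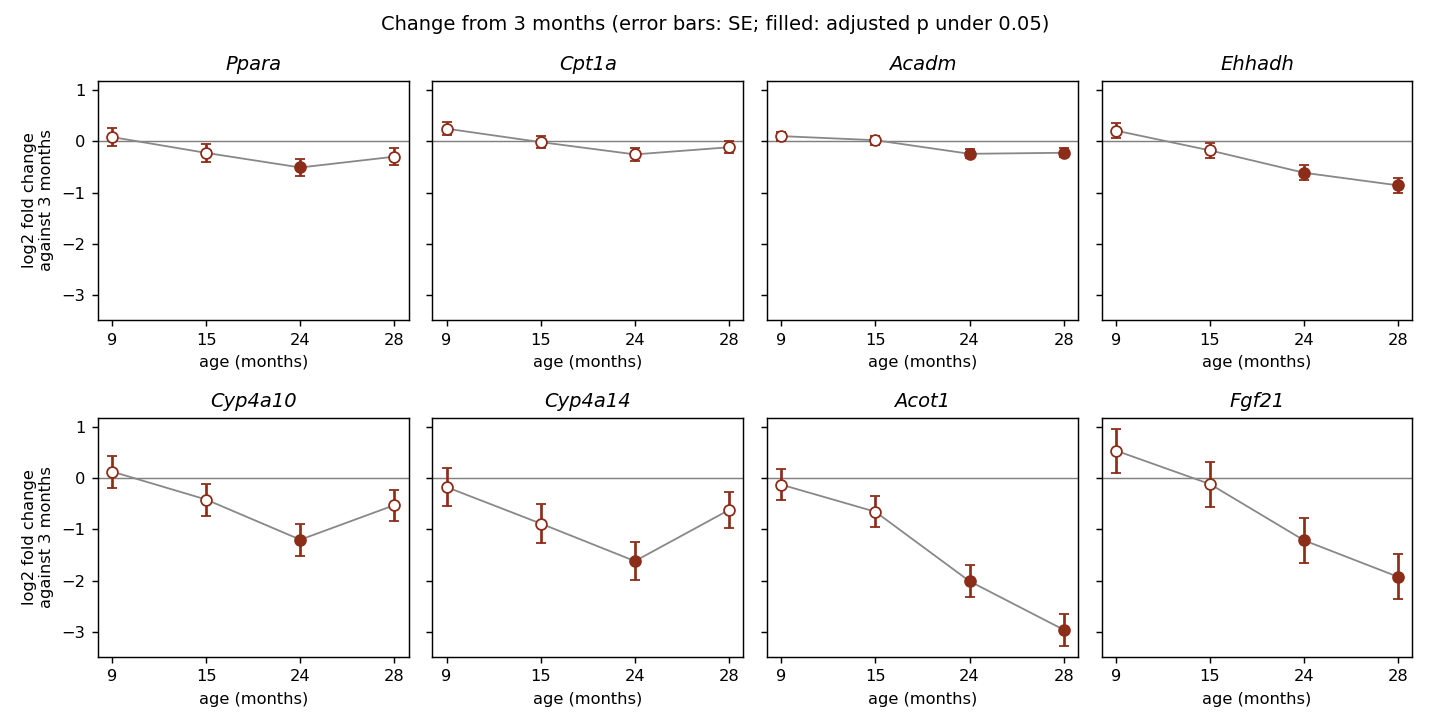
Log2 fold change of each gene against 3 months (vertical axis) at 9, 15, 24 and 28 months (horizontal axis), with SE bars, lines that join the ages, and filled points where the edgeR adjusted p is under 0.05. The points of Acot1, Ehhadh and Fgf21 are lowest at 28 months and those of Cyp4a10, Cyp4a14 and Ppara at 24 months, though from 24 to 28 months only the changes of Acot1 and Cyp4a14 passed.

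Between neighbouring ages, the step from 15 to 24 months held the most calls. From 9 to 15 months 0 of the 8 were called by edgeR, beside 0.0514% of all genes, with 2 at an unadjusted p under 0.05 and 0 by DESeq2. From 15 to 24 months 5 of the 8 fell, beside 14.4% of all genes called lower: Acot1 (-1.36 ± 0.31, adjusted p = 0.000371), Fgf21 (-1.10 ± 0.45, 0.0453), Cyp4a10 (-0.78 ± 0.31, 0.0394), Ehhadh (-0.44 ± 0.15, 0.0174) and Acadm (-0.27 ± 0.09, 0.0104). With prep 1 alone the value of Fgf21 turned to 0.18. The calls of Acot1, Ehhadh and Acadm held when any 1 liver was left out. The call of Cyp4a10 was lost, at adjusted p up to 0.0855, without any one of replicates 4, 12, 13, 15 and 16 of 15 months or 3, 5, 6, 7, 8, 10 and 13 of 24 months. That of Fgf21 was lost, at adjusted p up to 0.108, without any one of replicates 5, 8, 9, 10, 11, 12 and 16 of 15 months or 1, 2, 4, 6, 8, 9, 10, 11, 12, 13 and 15 of 24 months. Cpt1a, at -0.24 ± 0.12 (adjusted p = 0.114), passed without replicate 5 of 24 months (-0.33, adjusted p = 0.02). Without the 2 livers least like the rest, 3 of the 8 were called instead of 5, since Cyp4a10 (-0.74, adjusted p = 0.0602) and Fgf21 (-1.07, 0.0598) no longer passed.

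From 24 to 28 months 1 of the 8 rose and 1 fell. Cyp4a14 rose, with a log2 fold change of 1.00 ± 0.36 (adjusted p = 0.0446), from 200.4 ± 151 to 388 ± 255 CPM, beside 6.18% of all genes called higher. Acot1 went on falling, by -0.95 ± 0.30 (adjusted p = 0.0226), from 7.22 ± 5.21 to 3.73 ± 3.09 CPM, beside 9.13% of all genes called lower. The other 6 did not pass, among them Cyp4a10 at 0.68 ± 0.30 (adjusted p = 0.118), Fgf21 at -0.71 ± 0.44 (0.282), Ehhadh at -0.25 ± 0.15 (0.259) and Ppara at 0.21 ± 0.16 (0.403). Neither call was firm. That of Cyp4a14 was lost, at adjusted p up to 0.084, without any one of replicates 3, 5, 6, 7, 8, 9, 10, 13 and 15 of 24 months or 5, 7, 13, 15, 16, 17 and 18 of 28 months, and that of Acot1 without replicate 12 (adjusted p = 0.0506) or replicate 17 (0.05) of 24 months.

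Within single preps the direction was shared more than the calls. All 8 genes had log2 fold changes below 0 at 24 against 3 months in each prep fitted alone, called or not. In each, 2 of the 8 were called, beside 906, 2443 and 5321 genes in all called in either direction in preps 1, 2 and 3. At 28 against 3 months 8, 7 and 8 of the 8 were below 0 in preps 1, 2 and 3. There 4, 1 and 2 were called, beside 6198, 2457 and 6721 genes in all. No share of all genes called or below 0 was taken in these fits, so the members cannot be set above or below it. Acot1 was called in every prep in both comparisons, with log2 fold changes at 28 months of -3.67, -2.13 and -3.17.

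Genes of the circadian clock differed at 28 months and moved with some of the 8. Of 18 clock genes tested, 1 was higher and 2 lower at 24 against 3 months, while 9 were higher and 5 lower at 28 months. Of all genes, 25% were higher and 24% lower at 24 months, above the shares of the clock genes, and 31.9% and 30% at 28 months. Ciart, a clock repressor, was higher at 28 months by a log2 fold change of 4.03 ± 0.57 (adjusted p = 6.75e-09) and Npas2, an activator, was lower (-1.36 ± 0.35, adjusted p = 0.000643). A score was made of the first principal component of these genes, signed so that Dbp is positive. Its weights came from values without age and prep means and were here applied to values that keep them. This score had medians of -2.94, -1.66, -1.57 and -2.04 at 3, 9, 15 and 24 months and of 4.54 at 28 months, where it ran from -3.81 to 11.8. As a covariate it therefore overlaps with age, and their parts at 28 months cannot be fully told apart. With this score as a covariate, all 8 members were lower at 28 than at 3 months instead of 4, with Cpt1a at -0.56 (edgeR adjusted p = 4.76e-05), Ppara at -0.66 (0.00185), Cyp4a10 at -0.93 (0.0343) and Cyp4a14 at -1.12 (0.0373). All 8 were then also lower at 24 than at 3 months. Over all genes, in either direction, the fit with the covariate called 8310 at 28 against 3 months, where the fit without it called 9639, and 7797 in place of 7636 at 24 against 3 months. From 24 to 28 months no member and 167 genes in all were called with the covariate, in place of 2385 genes without it, with Cyp4a14 at 0.54 (adjusted p = 0.561) and Acot1 at -0.62 (0.414). Whether sampling time or a change of the clock set these values was not tested. Of 8 genes known to rise in fasting, 3 were higher and 1 lower at 28 months, and of 10 known to rise on feeding, none was higher and 7 were lower, beside 31.9% of all genes called higher and 30% lower. The 3 of 8 is close to that share over all genes.

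Markers of immune and stellate cells also moved with age, beside 25% of all genes called higher and 24% lower at 24 months, and 31.9% and 30% at 28 months. All 7 Kupffer cell and macrophage markers were higher at 24 and at 28 months, with summed levels of 270.4 to 999.98 CPM at 3 months, 410.3 to 1323 at 24 months and 445 to 4199.7 at 28 months. The 6 B and plasma cell markers were all higher at both ages, with sums of 5.97 to 24.0, 22.9 to 622 and 14.1 to 339 CPM, and 5 of 6 T cell markers were, with sums of 3.40 to 21.9, 4.56 to 61.5 and 6.48 to 37.1 CPM. Stellate cell markers were higher in 6 of 6 cases at 24 months and 5 of 6 at 28 months, with sums of 248 to 325, 358 to 542 and 357 to 536 CPM. Of 5 red cell markers, 4 were higher and 1 lower at 24 months and 3 higher and 1 lower at 28 months, with sums of 151 to 291, 102 to 532 and 51.3 to 406 CPM and medians of these sums of 214, 227 and 213 CPM. Of 5 cholangiocyte markers tested, 2 were higher and none lower at both ages. Of 8 hepatocyte markers, 2 were higher and 3 lower at 24 months, and 1 was higher and 3 were lower at 28 months. With so few genes, the hepatocyte and cholangiocyte counts are not far from the shares over all genes. The hepatocyte sum, led by the albumin and apolipoprotein genes, ran from 88069 to 126241 CPM at 3 months (median 112116), from 73253 to 156700.0 at 24 months (median 125276) and from 50668 to 150360.0 at 28 months (median 130146). The part of these markers in the falls of the 8 genes was not tested.

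The pathway around the 8 genes was read through 8 further lists, with 134 genes in all, of which 129 were tested. At 9 months 3 were higher and 3 lower, and at 15 months 5 were higher and 6 lower, shares near the 4.69% and 7.32% of all genes called in either direction. At 24 months 15 were higher and 70 lower (median of the log2 fold changes -0.26), and at 28 months 18 were higher and 80 lower, with a median of -0.39 beside 0.01 over all tested genes. Of all genes, 25% were higher and 24% lower at 24 months, and 31.9% and 30% at 28 months. Between 24 and 28 months 5 rose and 36 fell, beside 6.18% and 9.13% of all genes. These counts describe the lists and were not tested against other genes.

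**Figure D3:**
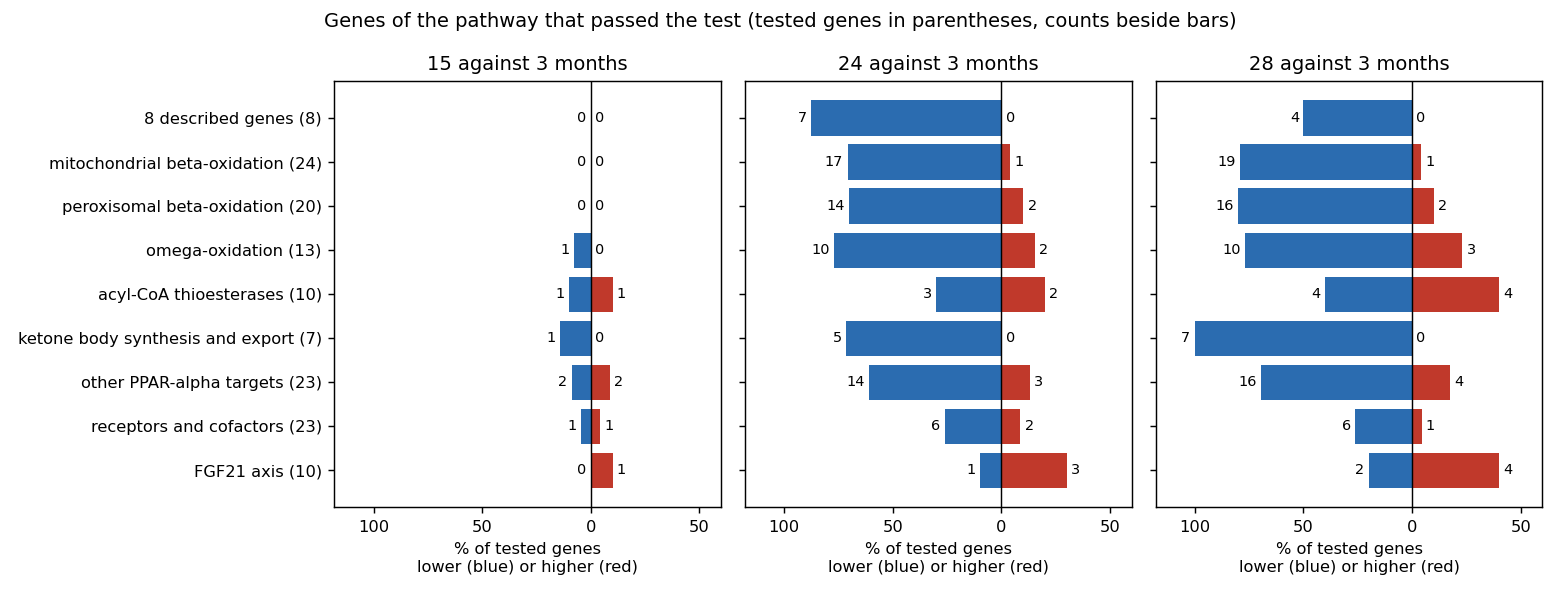
Share of tested genes of each list (horizontal axis, percent) that were lower (blue, left) or higher (red, right) at 15, 24 and 28 against 3 months, with the counts beside the bars and the number tested in parentheses. Lower calls make up most of the oxidation and ketone body lists at 24 and 28 months, and few calls stand at 15 months.

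In mitochondrial beta-oxidation, 17 of 24 genes were lower and 1 higher at 24 months, and 19 were lower and 1 higher at 28 months. Acsl1, which activates long-chain fatty acids to acyl-CoA, went from 1159 ± 202 CPM at 3 months to 534 ± 165 at 28 months, or -1.11 ± 0.13 on the log2 scale (adjusted p = 6.32e-11). Cpt2, the partner of Cpt1a on the inner mitochondrial membrane, was lower by a log2 fold change of -1.06 ± 0.10 (adjusted p = 9.18e-15). Cpt1a itself did not pass, and the difference between the 2 genes was not tested.

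Of 20 peroxisomal genes, 14 were lower and 2 higher at 24 months, and 16 were lower and 2 higher at 28 months. Acaa1b, a peroxisomal thiolase, fell from 1226 ± 471 to 285 ± 193 CPM at 28 months (-2.12 ± 0.24 on the log2 scale, adjusted p = 9.93e-12), and Scp2, which encodes sterol carrier protein and a peroxisomal thiolase, from 3381 ± 398 to 1356 ± 490.4 CPM (-1.31 ± 0.10, adjusted p = 1.33e-19). Among those that rose was Abcd2, a fatty acid transporter of the peroxisomal membrane (1.40 ± 0.20 at 28 months, adjusted p = 9.43e-09).

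The omega-oxidation list had 10 of 13 genes lower and 3 higher at 28 months. Its steepest falls were in Cyp4a12a (from 302 ± 96.9 to 15.2 ± 27.3 CPM, -4.61 ± 0.54 on the log2 scale, adjusted p = 2.6e-11) and Cyp4a12b (-4.27 ± 0.49, adjusted p = 8.81e-12), omega-hydroxylases of male liver that are close copies of each other, so that their separate counts are uncertain. Their difference from Cyp4a10 and Cyp4a14, which did not pass at 28 months, was not tested.

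All 7 genes of ketone body synthesis and export were lower at 28 months, and 5 of 7 at 24 months. Slc16a6, an exporter of ketone bodies, was already lower at 9 months (-1.06 ± 0.26 on the log2 scale, adjusted p = 0.0072) and stood at -1.22 ± 0.25 at 28 months (adjusted p = 1.73e-05). Its level at 3 months was widely spread, at 16.7 ± 13.2 CPM. It was then 8.04 ± 5.49 CPM at 9 months, 7.12 ± 1.79 at 15, 8.37 ± 3.13 at 24 and 7.15 ± 3.93 at 28 months.

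Among other known PPAR-alpha targets 16 of 23 were lower and 4 higher at 28 months. Fabp1, the fatty acid binding protein of the hepatocyte, fell from 3137 ± 1068 to 747 ± 368 CPM (-2.06 ± 0.20, adjusted p = 1.66e-14), and G0s2, an inhibitor of the triglyceride lipase ATGL, from 91.5 ± 60.7 to 18.4 ± 12.3 CPM (-2.33 ± 0.28, adjusted p = 6.62e-11). Ucp2, a mitochondrial carrier also made by macrophages, rose by 1.33 ± 0.19 on the log2 scale (adjusted p = 9.01e-09), and Por, the electron donor of microsomal P450 enzymes, by 1.29 ± 0.17 (adjusted p = 1.35e-09). Of 10 thioesterase genes, 4 were higher and 4 lower at 28 months, not far from the 31.9% and 30% over all genes.

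Of the 23 receptors and cofactors, 6 were lower and 2 higher at 24 months, and 6 were lower and 1 higher at 28 months, a share of lower calls near that over all genes (24% and 30%). The share of higher calls lay below that over all genes (25% and 31.9%). Rxra, the gene of the main partner receptor in liver, had means of 445 ± 66.7 CPM at 3 months and 427 ± 52.0 at 28 months. Ppargc1a, a coactivator induced in fasting, rose at 28 months from 7.99 ± 1.44 to 16.7 ± 9.26 CPM (1.07 ± 0.18, adjusted p = 6.12e-07), while Ppard, a related receptor, fell (-1.09 ± 0.26, adjusted p = 0.000266). In the list of FGF21 receptors and upstream stress genes 4 of 10 were higher and 2 lower at 28 months, not far from the 31.9% and 30% over all genes, with Fgfr1 at 1.01 ± 0.13 (adjusted p = 5.92e-10) and Klb, the coreceptor of FGF21, at 29.9 ± 6.64 CPM at 3 months and 34.6 ± 8.66 at 28 months.

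Among livers of the same age and prep, some of the 8 genes varied together. After the means of age and prep were removed, Pearson's r of log2 CPM over 83 livers was above 0 in all 28 pairs, with a median of 0.33, and 17 pairs passed a permutation test of r within age at an adjusted p under 0.05 over the 28 pairs. Cyp4a10, Cyp4a14, Ehhadh, Acadm and Acot1 formed the tighter set, with r between 0.61 and 0.91. The closest pair was Cyp4a10 and Cyp4a14, with r of 0.91 and Spearman's rho of 0.89 (adjusted permutation p of 2.5e-05 and 2.8e-05, from the smallest p that 100000 permutations can give, 1e-05) and r of 0.88 without the 2 livers farthest from the median of Cyp4a10.

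Ppara followed Cpt1a, with r of 0.61 and rho of 0.61 (adjusted permutation p = 2.5e-05 and 2.8e-05, r of 0.63 without the 2 farthest livers), but was only weakly related to Acot1 (r of 0.14 and rho of 0.11, adjusted permutation p = 0.26 and 0.4), to Ehhadh (r of 0.073, adjusted permutation p = 0.56) and to the Cyp4a genes (r of 0.15 and 0.18, adjusted permutation p = 0.23 and 0.17). Ppara with Fgf21 passed at a low r of 0.29 and rho of 0.29 (adjusted permutation p = 0.02 and 0.019), but in none of the preps alone. In prep 3 alone Ppara with Cpt1a had r of 0.41 (adjusted permutation p = 0.087) and rho of 0.49 (0.04). The clock score, too, was taken here with the means of age and prep removed. With it, 2 of the 8 genes passed by both measures: Cpt1a (r of 0.60, rho of 0.60, adjusted permutation p = 8e-05 for both) and Ppara (r of 0.38, rho of 0.41, adjusted permutation p = 0.0034 and 0.00092). Acadm passed by rho alone (rho of 0.295, adjusted permutation p = 0.033, and r of 0.255, adjusted permutation p = 0.11). In preps 1, 2 and 3 the r of Cpt1a with the score was 0.79, 0.28 and 0.65, and that of Ppara 0.70, 0.16 and 0.36.

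Not every pair held in every prep. Cyp4a10 with Cyp4a14 gave r of 0.87, 0.96 and 0.88 in preps 1, 2 and 3, and Ehhadh with Acot1 0.67, 0.82 and 0.78. In prep 1 alone Ehhadh with Acot1 did not pass (rho of 0.42, adjusted permutation p = 0.079 for r and 0.14 for rho), and its r was 0.17 without the 2 farthest livers. Acadm with Acot1 gave -0.0057, 0.88 and 0.69, and Cpt1a with Acot1 -0.44, 0.47 and 0.12. Of the 28 pairs, the single preps gave 9, 20 and 14 that passed by r, and the 28-month livers alone gave 8. The 3-month livers alone gave 13, several of which rest on the 2 livers farthest from the median: without them r went from 0.78 to 0.32 for Cyp4a10 with Cyp4a14, from 0.83 to 0.10 for Cyp4a10 with Acot1 and from 0.73 to -0.082 for Ehhadh with Acot1.

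**Figure D4:**
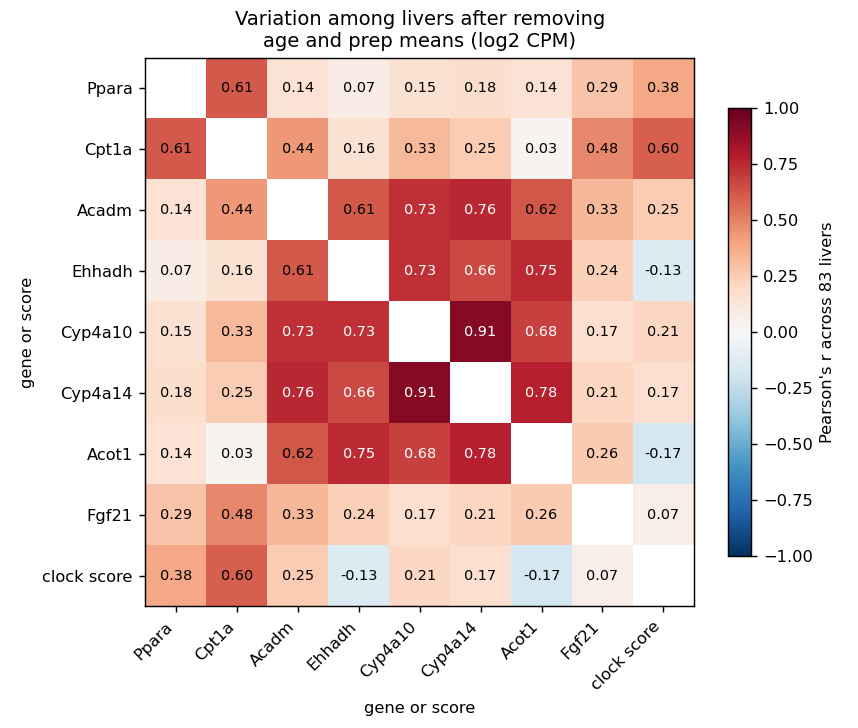
Pearson's r between the 8 genes and the clock score across 83 livers (both axes list the genes and the score; colour and printed number give r), on log2 CPM with age and prep means taken out. The Cyp4a10, Cyp4a14, Acadm, Ehhadh and Acot1 block is red throughout, and Ppara is above 0.5 with Cpt1a alone.

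The same livers were the extremes for several genes. Replicate 12 of 3 months was the lowest of its age for 5 of the 8 genes, replicate 8 of 24 months for 6, and replicate 2 of 15 months for 4. At the other end, replicate 11 of 9 months and replicate 4 of 15 months were each the highest of their age for 5 genes. Among tested genes other than the 8, with a mean of at least 1 CPM, the pattern over the 83 livers most like that of Acadm was Etfa, which passes electrons from acyl-CoA dehydrogenases to the respiratory chain (r of 0.92), then Acadl (0.91). For Acot1 the closest was Acsl1 (0.88), for Ehhadh Acaa1b (0.87), for Cyp4a10 and Cyp4a14 Retsat (0.78 and 0.86, below the 0.91 of these 2 members with each other), for Fgf21 Plin2, a coat protein of lipid droplets (0.64), for Cpt1a Klhl21 (0.81) and for Ppara Pdpr (0.89). These r are descriptions without a test, on log2 CPM with age and prep means removed. Etfa, Retsat, Acsl1, Acaa1b and Plin2 were themselves lower at 28 months, beside 30% of all genes. Acadl (-0.15, edgeR adjusted p = 0.0821), Klhl21 (-0.13, 0.33) and Pdpr (-0.05, 0.774) did not pass.

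In the brain, 5 of the 8 genes had enough counts to test. Cyp4a10 was at 3 counts or fewer in all 82 brain libraries, and Cyp4a14 and Fgf21 in 81 of 82 each. Ehhadh rose in the brain from 3.08 ± 0.65 CPM at 3 months (n = 15) to 4.05 ± 1.26 at 28 months (n = 18), a log2 fold change of 0.41 ± 0.11 (edgeR adjusted p = 0.00326), beside 28.3% of all brain genes called. Acadm was lower in the brain by a log2 fold change of -0.09 ± 0.03 (edgeR adjusted p = 0.04). Acot1 was at 9.67 ± 0.80 CPM at 3 months and 11.1 ± 7.93 in brains of 28 months (0.16 ± 0.13 on the log2 scale, adjusted p = 0.362), with 1 brain library as high as 42.6 CPM. Of these 5 genes, 2 changed differently from 3 to 28 months in liver and brain, a share at the 40.6% of all genes called in the fit of both tissues: the liver change minus the brain change was -3.06 ± 0.33 for Acot1 (adjusted p = 5.26e-14) and -1.24 ± 0.19 for Ehhadh (adjusted p = 2.67e-08). The difference for Acadm, at -0.09 ± 0.10, did not pass (adjusted p = 0.471). For Cyp4a10, Cyp4a14 and Fgf21 the brain counts allow no such comparison.

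**Figure D5:**
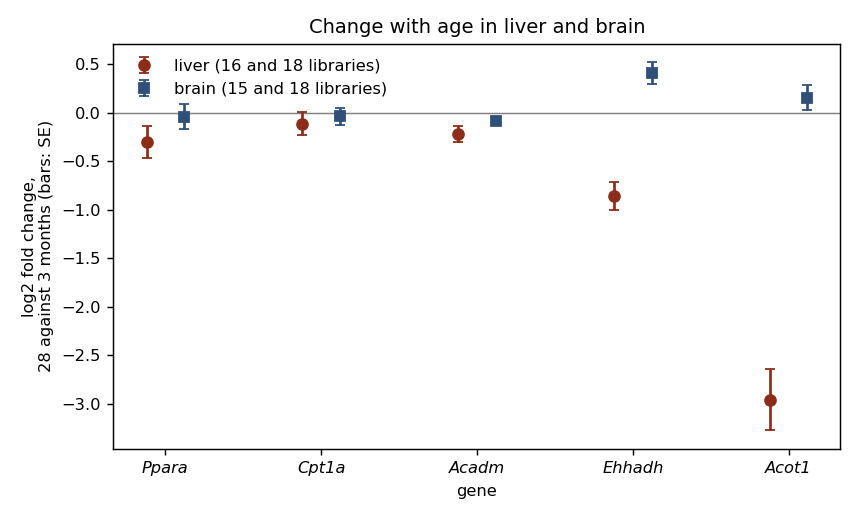
Log2 fold change of 28 against 3 months (vertical axis, SE bars) in liver (16 and 18 libraries) and brain (15 and 18 libraries) for the 5 genes tested in both tissues. Ehhadh is below 0 in liver and above 0 in brain, and Acot1 is at -2.96 in liver and 0.16 in brain.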

How the data were processed

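The authors deposited raw counts in whole numbers, 1 table for each tissue, covering 55471 Ensembl identifiers in 83 liver and 82 brain libraries, and every column was matched to a label by the library name it carries (0 columns left unused). Per the submitters' processing notes, cutadapt 2.8, HISAT2 2.1.0, SAMtools 1.9 and featureCounts of Subread 2.0.1 were used with the builds GRCm38.p6 and mm10; their settings, and the use of strand in counting, were not given in the sources used here. Stranded libraries of polyadenylated RNA were made after QIAzol extraction, per the labels' protocols. No 2 libraries of a tissue held identical counts.

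From these counts, genes were kept with filterByExpr by age (15579 in liver), scaled with TMM factors and fitted with edgeR 4.0.16 (R 4.3.3) by age and prep over all 83 livers. The two-sided quasi-likelihood tests were adjusted by Benjamini-Hochberg within each comparison and called at 0.05. An SE was obtained from the F statistic, as the size of the log2 fold change over the root of F. A library was at the floor with 3 counts or fewer. Low counts carry counting error beside the spread between mice, and PCR copies were not told apart. The tissue difference came from 1 fit over liver and brain with prep within tissue; a liver and a brain with the same age and number in the labels were taken as 1 mouse, used as a block in an alternative. Correlations used log2 CPM with a prior count of 2, with 100000 permutations within age (numpy 2.4.6). The steps were tested on simulated data.

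The members and the gene lists were chosen with earlier results of these data known. All 8 members were tested in every liver comparison, though not each is given with its value in all of them. From each list, the rule names the called genes of at least 1 CPM with the highest and lowest log2 fold changes at 28 against 3 months. Rxra, Klb and the nearest paralogs of Acot1 were added for their roles. Some genes that this rule names are not reported here. Symbols matched 55144 identifiers, and coordinates are those of GENCODE M21 (GRCm38). Alternatives were DESeq2 1.42.0, its size factors within edgeR, limma 3.58.1 voom with quality weights, no filter, no prep term, each prep alone, only the ages compared, the clock score as a covariate, the replicate number as a block and leaving out each liver.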

Additional observations from a re-analysis of the deposited data

Results flagged for a closer look

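Of the 5 genes with enough brain counts to compare, 2 changed differently from 3 to 28 months in liver and brain by the test of that difference, a share at the 40.6% called over all genes. The liver change minus the brain change was -3.06 on the log2 scale for Acot1 (edgeR adjusted p = 5.26e-14), which was 7.79-fold lower in old liver. For Ehhadh it was -1.24 (edgeR adjusted p = 2.67e-08), with a fall in liver and a rise in brain.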

How the results depend on the processing

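Of the 18 called member changes, 17 kept their sign in each of the 12 other settings, and Fgf21 from 15 to 24 months turned to 0.18 with prep 1 alone. DESeq2 and its size factors within edgeR left every count of called members as it was, and none was called at 9 or 15 against 3 months or at 15 against 9 months in any setting. Single preps hold fewer livers, and each called 2 members at 24 against 3 months and 4 over all ages together; preps 1, 2 and 3 called 4, 1 and 2 at 28 against 3 months, 0, 1 and 1 from 15 to 24 months, and 1, 0 and 0 from 24 to 28 months. Over all genes these fits called 3, 2630 and 1290 from 15 to 24 months, 2520, 0 and 198 from 24 to 28 months, and 5929, 4464 and 6455 over all ages. From 15 to 24 months 3 were called without a filter on low counts, with only these 2 ages fitted, or without the 2 livers least like the rest. From 24 to 28 months 1 was called without the filter, with voom or without the prep term, and 0 with only these 2 ages, with the clock score as a covariate or with the replicate block. With the clock score 8 were called at 28 against 3 months. The filter, preps and ages change the genes or livers used, and why any of these counts changed was not tested. Leaving out 1 liver gave 6 to 8 called at 24 against 3 months, 4 to 4 at 28 against 3 months, 3 to 5 from 15 to 24 months, 1 to 2 from 24 to 28 months, and 8 to 8 over all ages. The tissue difference called 2 members with RLE size factors and with the mouse as a block, the pairing of liver and brain, and 3 with voom; its extra call, Fgf21, holds no measured brain change, since 81 of 82 brain libraries had 3 counts or fewer. The replicate numbers name different mice: same-numbered livers of different ages had a median correlation of 0.0091 over 161 pairs (-0.58 to 0.37), so the block pairs no samples; it gave 7 called at 24 against 3 months, 4 at 28 against 3 months and 4 from 15 to 24 months. By r, 9 member pairs passed in prep 1 alone and 8 among the 28-month livers alone, and with the clock score 0 passed in prep 2 and 4 in prep 3.

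The other signs that turned were of values that had not passed. At 9 against 3 months these were Ppara with prep 1 alone (-0.60) and with voom (-0.0043), Cpt1a (-0.092), Cyp4a10 (-0.011) and Fgf21 (-0.024) with prep 1 alone, Cyp4a10 with voom (-0.081) and with prep 2 alone (-0.26), Ehhadh with prep 2 alone (-0.068) and Cyp4a14 with prep 3 alone (0.27). At 15 against 3 months they were Ppara (0.022), Cpt1a (0.089), Acadm (-0.040) and Fgf21 (1.29) with prep 3 alone, Cpt1a with prep 2 alone (0.061) and Acadm with prep 1 alone (-0.022), and at 28 against 3 months Ppara with prep 2 alone (0.024). From 9 to 15 months they were Ppara with prep 1 alone (0.010), Cyp4a10 (0.036) and Cyp4a14 (0.043) with prep 2 alone and Fgf21 with prep 3 alone (0.74). From 24 to 28 months they were Ppara (-0.14), Cpt1a (-0.0083) and Fgf21 (0.29) with prep 3 alone, Ppara (-0.12), Cpt1a (-0.26) and Acadm (-0.10) with the clock score, and Acadm with prep 1 alone (-0.091), with voom (-0.0051) and with the block (-0.0041). Fgf21 had the lowest counts of the 8, and its lowest library at each age held 2 to 15 counts. Its SD between livers was 91.2% of the mean CPM at 3 months and 102% at 28 months. Whether depth had a part in these turns was not tested.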
